A study of Mus musculus with 6 samples.

Results

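Fibroblast growth factor (FGF) ligands and their receptors were followed in C2C12 cells, a mouse myoblast line that fuses into myotubes when serum is withdrawn. The list held 7 genes chosen by symbol, namely the receptor genes *Fgfr1*, *Fgfr2*, *Fgfr3*, *Fgfr4* and *Fgfrl1* and the ligand genes *Fgf2* and *Fgf7*. Of the 7 genes, 6 were among the 14548 genes in the files, 5 were among the 10837 genes tested, and *Fgfr2* was not analysed here. A gene was tested when at least 1 library reached 1 FPKM, the unit of the files, in which the fragments on a gene are divided by its exon length and by the fragments mapped in that library.

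RNA-seq of 3 WT libraries and 3 MSTN-KO libraries was compared to ask how the loss of myostatin, a secreted TGF-beta family protein that restrains muscle growth, changed gene expression. The study describes its WT cells as wild-type C2C12 cells. The MSTN-KO cells came from 1 line, C11, made by Cas9 cutting of *MSTN* after electroporation of a plasmid, so a change of that line by chance and an effect of the knockout cannot be told apart. Both groups are labelled as myoblasts of skeletal muscle, both carry the strain label C11, and the study grew its cells in DMEM with fetal bovine serum. The study uses C11 for the knockout cells, so this label conflicts with the WT group. The groups used here rest on the genotype label. The sources used here do not say that replicates were separate cultures, so p-values measure only the spread between these libraries, which may be technical.

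FGFs are signalling proteins that bind receptor tyrosine kinases on the cell surface together with heparan sulfate chains, and the activated receptor feeds the RAS-ERK kinase chain. In cultured myoblasts, FGF signalling is known to sustain proliferation and to delay differentiation. *Fgfr1* is the main FGF receptor of proliferating myoblasts, *Fgfr4* is known from differentiating and regenerating muscle, and *Fgf7* encodes keratinocyte growth factor, a ligand made by mesenchymal cells that acts on the epithelial splice form of FGFR2.

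The 2 members with the largest changes were *Fgfr4*, which was lower in MSTN-KO cells, and *Fgf7*, which was higher. The 250 bases before their transcription starts are shown because expression of these genes separated the groups most widely. They were taken from RefSeq, build GRCm38.p6, plus strand, chr13:55152568-55152817 for *Fgfr4* and chr2:126034408-126034657 for *Fgf7*. Capitals mark E-boxes, the sequence CANNTG to which muscle bHLH factors such as MYOD1 and MYOG bind.
Fgfr4: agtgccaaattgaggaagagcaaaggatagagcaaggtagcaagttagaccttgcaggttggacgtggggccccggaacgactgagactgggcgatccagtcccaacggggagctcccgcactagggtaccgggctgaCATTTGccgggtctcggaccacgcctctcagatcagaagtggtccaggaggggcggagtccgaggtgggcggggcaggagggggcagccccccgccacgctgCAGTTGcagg
Fgf7: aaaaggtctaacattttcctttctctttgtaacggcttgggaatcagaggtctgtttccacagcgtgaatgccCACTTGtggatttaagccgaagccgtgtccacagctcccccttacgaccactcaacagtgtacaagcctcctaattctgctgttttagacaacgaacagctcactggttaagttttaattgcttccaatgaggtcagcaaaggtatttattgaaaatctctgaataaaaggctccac

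The stretch before *Fgfr4* had a GC content of 64% and the one before *Fgf7* had 43.6%. The RefSeq start of *Fgfr4* lies downstream of the GENCODE gene start at 55152640 given with its values, so most of its printed stretch, both E-boxes included, lies inside the GENCODE gene, whereas the stretch of *Fgf7* ends just before the start given there. The E-boxes of *Fgfr4* began at positions -112 and -10 from the RefSeq start, and that of *Fgf7* began at -177. The search covered windows of 300 bases, which run 50 bases past the start, on both strands. Within those 50 bases, *Fgfr4* also held the M-CAT sequence CATTCC, to which TEAD factors bind, at position 3. The AP-1 sequence TGANTCA was found in neither window. Such matches are common, and no match was tested for binding. Of all 32851 RefSeq windows of the same length, 72.3% held an E-box, 14.7% held CATTCC and 7.81% held TGANTCA.

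The libraries differed in the level of muscle differentiation genes, and these values stand beside the results below. *Mstn* RNA was near 0 throughout, at 0.0211, 0 and 0.0399 FPKM in WT cells and 0.0269, 0.0586 and 0.039 FPKM in MSTN-KO cells, and so did not check the labels. All 5 myoblast markers in the files, *Myod1*, *Myf5*, *Des*, *Pax7* and *Vcam1*, were detected in every library. Of these, *Des* (-0.96) and *Myod1* (-0.58) were called lower, *Pax7* (0.64) was called higher, and *Myf5* and *Vcam1* did not pass. Their sum, most of it *Des*, was 727 to 1000 FPKM in WT cells and 442 to 532 FPKM in MSTN-KO cells. Of 11 muscle differentiation genes tested, such as *Myog*, all 11 were lower in MSTN-KO cells, with a median log2 fold change of -2.77, though *Myh3* and *Ckm* entered the test only through WT libraries. Their list summed to 960, 947 and 268 FPKM in WT replicates 1, 2 and 3, and to 40.0, 56.2 and 67.2 FPKM across MSTN-KO replicates 1, 2 and 3. WT replicate 3 therefore stood apart from the other WT libraries, and results are given with and without it. Markers of other cell types were low or did not separate the groups, apart from the fibroblast marker *Dcn*. Epithelial markers summed to at most 0.492 FPKM and endothelial markers to at most 0.167 FPKM in any library. Blood cell markers ran from 7.17 to 9.69 FPKM and adipocyte markers from 5.36 to 8.28 FPKM over both groups, and none of those tested passed. Fibroblast markers summed to 182 to 251 FPKM in WT cells and 242 to 251 FPKM in MSTN-KO cells, with 1 of 3 tested genes lower and none higher. The lower gene was *Dcn*, at 2.80, 2.83 and 1.47 FPKM in WT cells and 1.27, 1.40 and 0.444 FPKM in MSTN-KO cells.

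Among the receptors, *Fgfr1* was the most abundant in every library and was higher in MSTN-KO cells, *Fgfr4* fell to near 0, and *Fgfrl1* and *Fgfr3* overlapped between the groups. *Fgfr1* (ENSMUSG00000031565, chromosome 8, 25513654 to 25575718, GRCm38) encodes the receptor tyrosine kinase through which most FGF signals reach myoblasts. Its expression was 59.3, 56.2 and 49.2 FPKM in WT replicates 1, 2 and 3, and 71.8, 76.7 and 84.7 FPKM in MSTN-KO replicates 1, 2 and 3. All 3 MSTN-KO libraries lay above all WT libraries, and the lowest of them was 1.21 times the highest WT library. The mean was 54.9 ± 5.19 FPKM (SD, n = 3) in WT cells and 77.7 ± 6.54 FPKM (SD, n = 3) in MSTN-KO cells, a ratio of 1.42. On the log2(FPKM + 1) scale, *Fgfr1* was higher by 0.50 (SE 0.13, 95% interval 0.22 to 0.77), with an adjusted p of 0.0174 by limma over all genes tested. The exact permutation test gave p = 0.1, two-sided, the smallest that 20 regroupings of 3 against 3 libraries can give. The call rests on each of several libraries. The adjusted p was 0.0647 without WT replicate 3, 0.0645 without WT replicate 2 and 0.0565 without MSTN-KO replicate 3, with log2 fold changes of 0.42, 0.51 and 0.43. Scaling every library to the same FPKM sum moved the median of all genes to -0.26 and left *Fgfr1* at 0.21 (adjusted p = 0.161), which was 0.47 above that median.

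*Fgfr4* (ENSMUSG00000005320, chromosome 13, 55152640 to 55168759) encodes another FGF receptor tyrosine kinase. Its expression was 2.60, 1.75 and 1.00 FPKM in the WT replicates, and 0.0585, 0.0165 and 0 FPKM in MSTN-KO replicates 1, 2 and 3. No library of one group lay within the range of the other, and the lowest WT library was 17.1 times the highest MSTN-KO library. The value of 0.0165 FPKM in MSTN-KO replicate 2 lay at the lower end of what genes of this length read when detected. Among 1554 genes within 10% of its exon length of 3542 bases, percentile 1 of the nonzero values was 0.0177, 0.0162 and 0.0152 FPKM in the MSTN-KO libraries. *Fgfr4* fell by 1.40 on the log2(FPKM + 1) scale (SE 0.21, 95% interval -1.86 to -0.94), with an adjusted p of 0.00071 by limma. This scale understates the change of a gene with low values, and with a pseudocount of 0.1 the log2 fold change was -3.85. Without WT replicate 3, which was the lowest WT library, it was -1.62 (adjusted p = 0.000127). The exact permutation test again gave p = 0.1, the smallest possible. *Fgfr4* entered the test only through its WT libraries, so a gene that passed this way had to be higher there. In bulk RNA, fewer cells expressing a gene and less RNA per cell cannot be told apart.

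*Fgfrl1* (ENSMUSG00000008090, chromosome 5, 108692382 to 108706924) encodes an FGF receptor-like protein that binds FGFs but lacks the tyrosine kinase domain. It was the next most abundant receptor after *Fgfr1* in every library, at 14.5, 11.7 and 12.2 FPKM in WT cells and 12.1, 11.8 and 13.7 FPKM in MSTN-KO cells. The groups overlapped, and the means were 12.8 ± 1.49 and 12.5 ± 1.04 FPKM (SD, n = 3 each). The log2 fold change was -0.02, with a 95% interval from -0.33 to 0.28 and an adjusted p of 0.935 by limma, and without WT replicate 3 it was -0.05 (adjusted p = 0.876). A change of more than about that interval in either direction was therefore not seen, while a smaller one could not be detected with 3 libraries a group.

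*Fgfr3* (ENSMUSG00000054252, chromosome 5, 33721674 to 33737068), a receptor tyrosine kinase best known for restraining bone growth, stayed under 1 FPKM in every library and was not tested across genes. It read 0.482, 0.348 and 0.298 FPKM in WT cells and 0.328, 0.207 and 0.272 FPKM in MSTN-KO cells. MSTN-KO replicate 1 lay inside the WT range, and the exact permutation test of the means gave p = 0.2. With no filter on low values, the adjusted p by limma was 0.302.

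**Figure D1:**
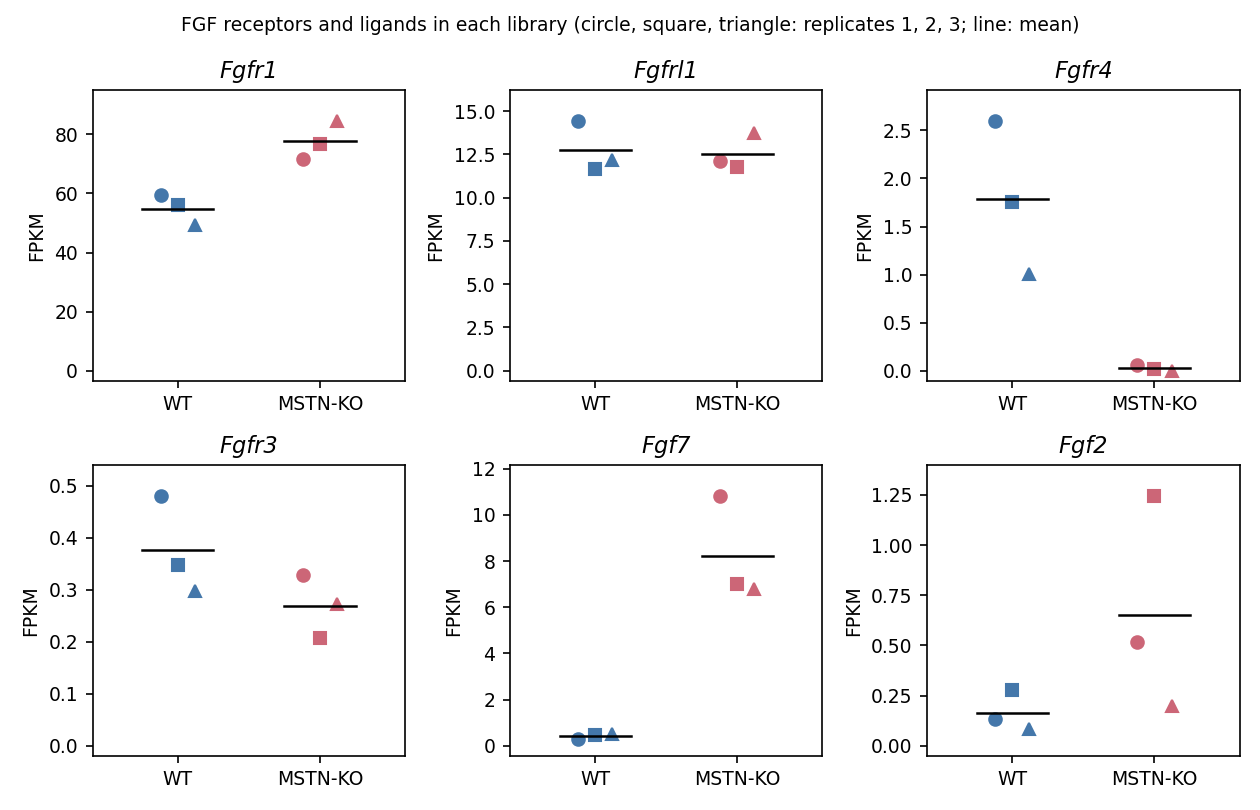
Each panel plots FPKM (vertical axis, linear, own scale) of 1 gene in the 3 WT libraries (blue) and the 3 MSTN-KO libraries (red), with circles, squares and triangles for replicates 1, 2 and 3 and a line at the mean. The groups are apart for *Fgfr1*, *Fgfr4* and *Fgf7* and overlap for *Fgfrl1*, *Fgfr3* and *Fgf2*.

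FPKM is set per length, so the receptors can also be read as shares of their sum in 1 library. The summed expression of the 4 receptor genes in the files was 76.9, 69.9 and 62.7 FPKM in WT cells and 84.3, 88.7 and 98.7 FPKM in MSTN-KO cells. *Fgfr1* made up 77.2%, 80.3% and 78.5% of that sum in WT cells and 85.2%, 86.5% and 85.8% in MSTN-KO cells. *Fgfrl1* made up 16.7% to 19.4% in WT cells and 13.3% to 14.4% in MSTN-KO cells. The order of the receptors in WT cells was *Fgfr1*, *Fgfrl1*, *Fgfr4* and *Fgfr3* in all 3 libraries, and *Fgfr4* came last in all 3 MSTN-KO libraries. *Fgfr4* held 3.39%, 2.51% and 1.6% of the sum in WT cells and 0.0694%, 0.0186% and 0% in MSTN-KO cells. *Fgfr3* held 0.626%, 0.498% and 0.476% in WT cells and 0.389%, 0.233% and 0.276% in MSTN-KO cells. Among the receptors with a kinase domain, *Fgfr1* made up 95.1% to 97.4% of the sum in WT cells and 99.5% to 99.7% in MSTN-KO cells. These shares are descriptions without a test, they leave out *Fgfr2*, and a higher *Fgfr1* by itself lowers the shares of the rest.

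**Figure D2:**
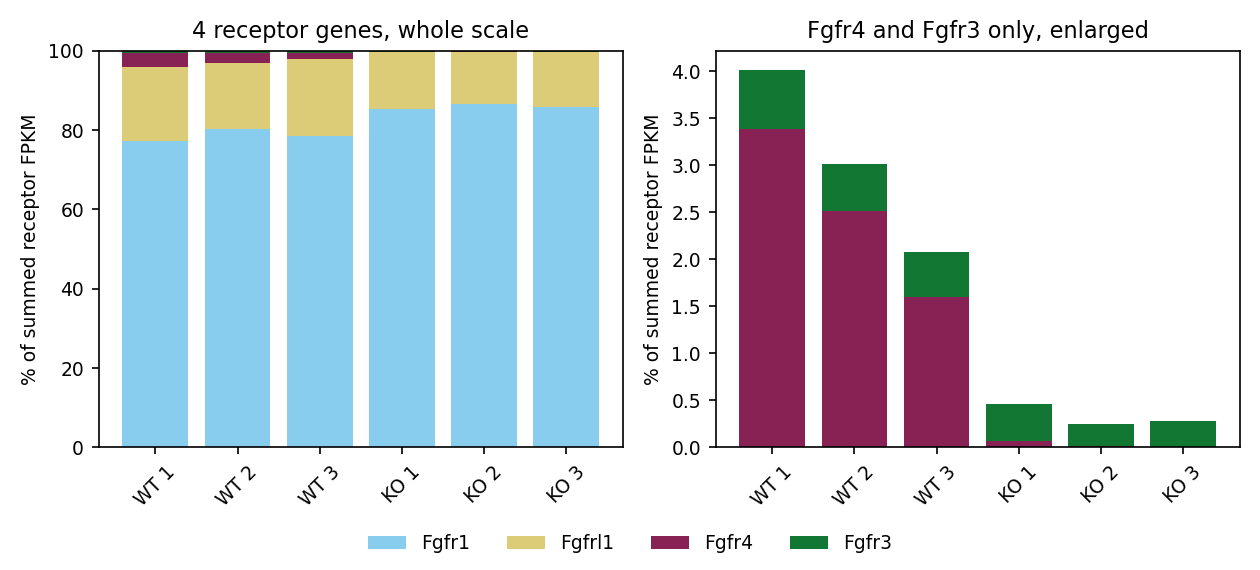
Stacked bars give the share of each receptor gene (vertical axis, % of the summed receptor FPKM) in each library, with all 4 genes on the left and *Fgfr4* and *Fgfr3* enlarged on the right (KO, MSTN-KO). *Fgfr1* fills 77.2% to 80.3% of the WT bars and 85.2% to 86.5% of the MSTN-KO bars, and *Fgfr4* is at most 0.0694% in MSTN-KO cells.

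Of the ligands, *Fgf7* was far higher in MSTN-KO cells, and *Fgf2* stayed low and overlapped. *Fgf7* (ENSMUSG00000027208, chromosome 2, 126034658 to 126091185) read 0.292, 0.445 and 0.509 FPKM in the WT replicates and 10.8, 7.01 and 6.79 FPKM in MSTN-KO replicates 1, 2 and 3. The groups were well apart, with the lowest MSTN-KO library at 13.3 times the highest WT library. The mean was 0.415 ± 0.112 FPKM (SD, n = 3) in WT cells and 8.21 ± 2.28 FPKM (SD, n = 3) in MSTN-KO cells, a ratio of 19.8. On the log2(FPKM + 1) scale, *Fgf7* rose by 2.68 (SE 0.19, 95% interval 2.27 to 3.08), with an adjusted p of 9.75e-07 by limma. The exact permutation test gave p = 0.1, and without WT replicate 3 the log2 fold change was 2.73 (adjusted p = 1.94e-06). *Fgf7* entered the test only through its MSTN-KO libraries, so it too had to differ in this direction. At these levels it was the most abundant FGF ligand of the list in MSTN-KO cells.

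*Fgf2* (ENSMUSG00000037225, chromosome 3, 37348346 to 37410108) encodes basic FGF, the ligand most used to keep cultured myoblasts dividing. It read 0.132, 0.275 and 0.0830 FPKM in WT cells and 0.517, 1.25 and 0.196 FPKM in MSTN-KO cells. MSTN-KO replicate 3 lay inside the WT range, and only MSTN-KO replicate 2 reached 1 FPKM, which brought the gene into the test. The log2 fold change was 0.46 (95% interval -0.03 to 0.95), with an adjusted p of 0.175 by limma and a range of 0.0601 to 0.472 over the alternatives, at 0.31 without WT replicate 3. The exact permutation test gave p = 0.2. The mean was 0.163 ± 0.1 FPKM (SD, n = 3) in WT cells and 0.653 ± 0.539 FPKM (SD, n = 3) in MSTN-KO cells, a ratio of 4.0. As for *Fgfr4*, the scale understates a change at low values. With a pseudocount of 0.1 the log2 fold change of *Fgf2* was 1.32 (adjusted p = 0.155 by limma). *Nudt6*, which is annotated on the opposite strand and overlaps *Fgf2*, read 6.40, 7.57 and 6.99 FPKM in WT cells and 6.84, 6.26 and 8.78 FPKM in MSTN-KO cells. Strand use in the authors' quantification is not given in the sources used here, so reads where the pair overlaps cannot be told apart. *Fgf7*, *Fgfr1* and *Fgfr3* are also overlapped on the opposite strand by annotated genes that are not in the files. The same limit applies to them.

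Of the 5 members tested, *Fgfr1* and *Fgf7* were called higher, *Fgfr4* was called lower, and *Fgfrl1* and *Fgf2* did not pass. Over all 10837 genes tested, 8.78% were called higher and 8.96% were called lower at an adjusted p under 0.05. By the study's criteria for differentially expressed genes (DEGs), which set p under 0.05 without adjustment together with a change beyond 1 on the log2 scale, *Fgf7* was an upregulated DEG and *Fgfr4* a downregulated DEG. Applied to the limma fit used here, these criteria called 1.21% of all genes upregulated and 2.3% downregulated. The study, which used the iDEP software, reported more DEGs in each direction, with more upregulated than downregulated. These calls and shares are therefore not those of the study. The members were few and were chosen with earlier results known, so these shares are set beside each other without a test.

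The values of *Fgfr4* and of the differentiation genes were set side by side in each library. In deviation from the WT mean on the log2(FPKM + 1) scale, *Fgfr4* stood at 0.41, 0.02 and -0.44 in WT replicates 1, 2 and 3, and at -1.36, -1.41 and -1.44 in the MSTN-KO replicates. The median of 12 differentiation genes stood at 0.62, 0.57 and -1.14 in WT cells, and at -2.82, -2.71 and -2.61 in MSTN-KO cells. WT replicate 3 was thus the lowest WT library in both measures. It stood apart from the other WT libraries only in the differentiation median, whereas *Fgfr4* fell in similar steps from WT replicate 1 to 3. *Fgfr1* deviated by 0.11, 0.04 and -0.15 in WT cells and by 0.39, 0.48 and 0.62 in MSTN-KO cells. *Fgf7* deviated by -0.13, 0.03 and 0.10 in WT cells and by 3.07, 2.51 and 2.46 in MSTN-KO cells. WT replicate 3 was thus the WT library farthest from the MSTN-KO libraries in *Fgfr1* and the nearest in *Fgf7*, by a small margin in *Fgf7*. The part of the lower differentiation genes in any FGF result was not tested.

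**Figure D3:**
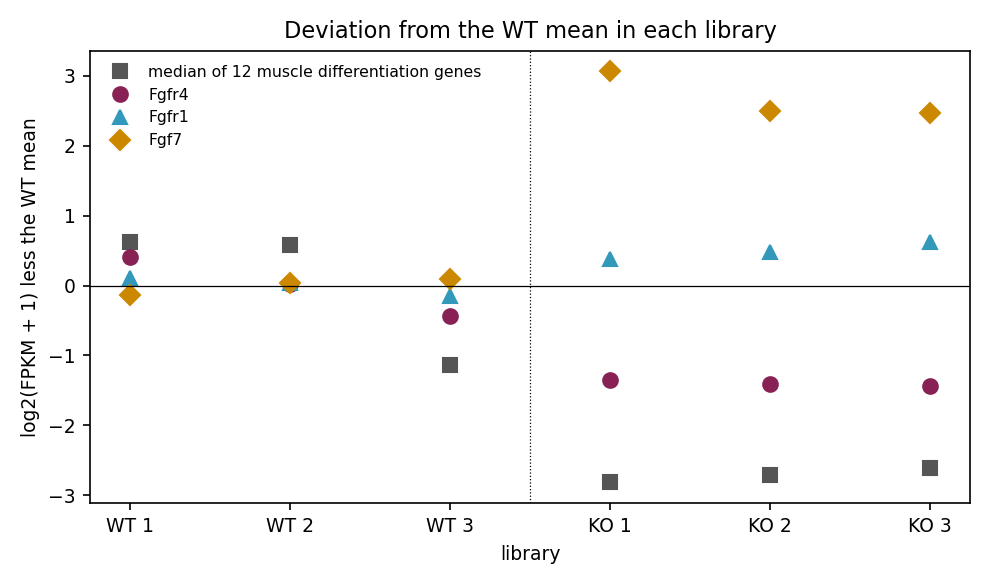
The deviation of each library from the WT mean (vertical axis, log2(FPKM + 1) units) is plotted for *Fgfr4*, *Fgfr1*, *Fgf7* and the median of 12 muscle differentiation genes, in the 3 WT libraries and the 3 MSTN-KO libraries (KO). In WT replicate 3, *Fgfr4* is at -0.44 and the differentiation median at -1.14, each the lowest of the WT libraries, and *Fgf7* is at 0.10, the highest of them.

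The 3 tested genes whose pattern over the 6 libraries lay nearest to *Fgfr4*, by Euclidean distance of these deviations, were *Klc3* (0.232), a kinesin light chain gene, *Ankrd2* (0.255), an ankyrin repeat gene of striated muscle, and *Kif1a* (0.323), a kinesin motor gene. *Ankrd2* read 2.36, 1.88 and 0.819 FPKM in WT cells and 0.0540, 0 and 0.0984 FPKM in MSTN-KO cells. The genes nearest to *Fgf7* were *Cxcl5* (0.395), a chemokine gene, *Sfrp2* (0.469), which encodes a secreted Wnt inhibitor, and *Tap2* (0.470), a peptide transporter gene of antigen presentation. *Cxcl5* read 1.57, 1.11 and 1.63 FPKM in WT cells and 22.4, 11.6 and 12.7 FPKM in MSTN-KO cells. These genes were picked for their likeness, which is a description over 6 libraries.

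*Fgfr4* lies on chromosome 13, where 81.9% of the 409 other tested genes were lower in MSTN-KO cells, with a median log2 fold change of -0.34, the lowest of 20 chromosomes. Of these 409 genes, 119 were called lower and 18 higher, beside 8.96% and 8.78% of all genes tested. Of the 10 nearest tested genes, 5 on each side, 9 were lower and 3 were called lower, with a median of -0.38 and a range from -0.61 to 0.08. The 3 were *Rnf44* (-0.61, adjusted p = 0.00671 by limma), a RING finger gene, *Nsd1* (-0.57, adjusted p = 0.0312), a histone methyltransferase gene, and *Gprin1* (-0.55, adjusted p = 0.0391), a gene of neurite outgrowth. The calls of *Nsd1* and *Gprin1* were lost without WT replicate 3, at adjusted p = 0.0698 and 0.0598. *Fgfr4* at -1.40 lay below all 10 neighbours. Around *Fgf7* the 10 nearest tested genes had a median of 0.07 with 2 called higher, and around *Fgfr1* a median of 0.12 with 1 called higher. The chromosome medians were 0.11 on chromosome 2 and 0.12 on chromosome 8, where 91 of 881 and 66 of 561 other tested genes were called higher. The part of the difference across chromosome 13 in the *Fgfr4* value was not tested.

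**Figure D4:**
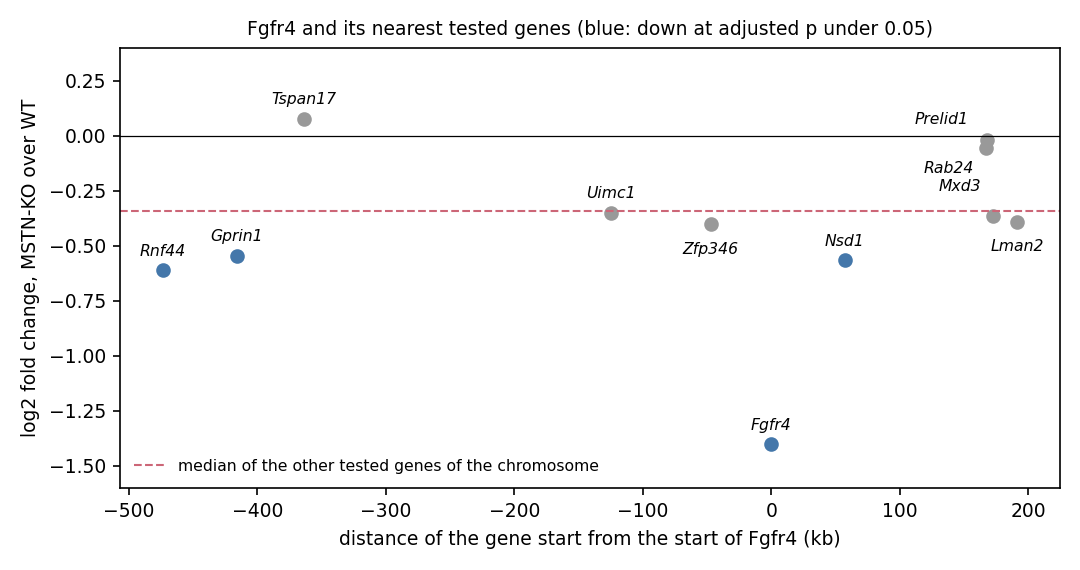
The log2 fold change (vertical axis, MSTN-KO over WT, log2(FPKM + 1) scale) of *Fgfr4* and its 10 nearest tested genes is plotted against distance of the gene start in kb (horizontal axis), with called genes in blue and a dashed line at the chromosome median of -0.34. The neighbours lie between -0.61 and 0.08, and *Fgfr4* lies at -1.40.

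The rest of the FGF pathway was described with 9 lists, which held 95 further genes, 78 of them in the files and 61 tested. Of the 61, 1 was called higher and 9 were called lower, beside 8.78% and 8.96% of all genes, and the median log2 fold change was -0.15 beside -0.001 for all genes. The 9 include *Fgf21* and *Etv1*, which reached 1 FPKM in WT libraries alone. The lists were chosen with earlier results known, and no test was run on any list as a whole.

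Among 16 other secreted FGF ligands, 9 were in the files and 2 were tested. Both were called lower, beside 8.96% of all genes tested. *Fgf21*, a hormone-like FGF that stressed muscle and liver release, read 9.30, 9.99 and 2.20 FPKM in WT cells and 0.476, 0.404 and 0.503 FPKM in MSTN-KO cells. The groups were apart, with WT replicate 3 the lowest WT library, as for *Fgfr4*. *Fgf21* fell by 2.29 on the log2(FPKM + 1) scale (adjusted p = 0.000868 by limma), and by 2.87 without WT replicate 3 (adjusted p = 2.27e-07). Like *Fgfr4*, it entered the test only through its WT libraries and could only be lower. *Fgf5*, a ligand known for ending hair growth, read 1.74, 2.0 and 3.0 FPKM in WT cells and 0.417, 1.25 and 1.09 FPKM in MSTN-KO cells. Its log2 fold change was -0.77 (adjusted p = 0.0258 by limma), and its call was lost under 6 of 15 alternatives. *Fgf10*, a close relative of *Fgf7*, stayed under 1 FPKM, at 0.0568, 0.125 and 0.178 FPKM in WT cells and 0.510, 0.512 and 0.198 FPKM in MSTN-KO cells. *Fgf11*, the only intracellular FGF homologous factor tested, had a log2 fold change of -0.48 and an adjusted p of 0.0574.

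FGFs bind their receptors with heparan sulfate, and the genes for its carriers and editing enzymes were listed separately. None of the 8 heparan sulfate proteoglycan genes tested was called, with a median of -0.02, and *Gpc1*, a glypican of the cell surface, had a log2 fold change of -0.49 with an adjusted p of 0.0571. *Gpc2* stayed under the filter and read 0.522, 0.530 and 0.288 FPKM in WT cells, while it was listed at 0 in all 3 MSTN-KO libraries. Of 14 heparan sulfate synthesis and editing genes tested, 2 were lower, none was higher, and the median was -0.27. Over all genes tested, 8.96% were called lower and 8.78% were called higher. *Sulf1*, an extracellular sulfatase that removes 6-O-sulfates and thereby weakens FGF2 signalling, read 15.1, 16.2 and 15.1 FPKM in WT cells and 7.69, 9.75 and 6.41 FPKM in MSTN-KO cells. It fell by 0.90 on the log2 scale (adjusted p = 0.00196 by limma), a call kept under all 15 alternatives. *Hs2st1*, which adds 2-O-sulfates, had a log2 fold change of -0.50 (adjusted p = 0.0278), and its call was lost under 5 of 15. Of the Klotho, FGF binding and FLRT genes, 2 were tested and neither passed.

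Within the cell, 1 of 11 receptor adaptor genes was called lower, beside 8.96% of all genes tested. *Crkl*, an SH2 and SH3 adaptor, read 11.98, 11.7 and 12.8 FPKM in WT cells and 5.77, 6.99 and 5.61 FPKM in MSTN-KO cells, a log2 fold change of -0.89 (adjusted p = 0.00104 by limma). Of 9 genes of the RAS-ERK kinase chain reported here, 1 was lower and 1 was higher, beside 8.96% and 8.78% of all genes. *Nras*, a RAS GTPase gene, read 29.3, 29.4 and 31.3 FPKM in WT cells and 19.8, 19.9 and 15.8 FPKM in MSTN-KO cells, a log2 fold change of -0.68 (adjusted p = 0.00431 by limma). *Map2k2*, which encodes the ERK kinase MEK2, was higher by 0.42 (adjusted p = 0.0326), a call lost under 6 of 15 alternatives and, with libraries scaled to the same sum, at 0.13. The calls of *Crkl* and *Nras* were kept under all 15.

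The lists of feedback inhibitors and ETS factors include genes that FGF signalling is known to induce, though not every gene listed is of this kind. Of 11 feedback inhibitors tested, 1 was called lower and none was called higher, beside 8.96% and 8.78% of all genes tested. A log2 fold change below 0 was found for 9 of the 11, beside 5429 of all 10837 genes, and the median was -0.12. *Spry2*, a Sprouty inhibitor of RAS-ERK signalling, read 32.1, 29.5 and 22.0 FPKM in WT cells and 20.5, 18.9 and 18.9 FPKM in MSTN-KO cells. Its log2 fold change was -0.48 (adjusted p = 0.0415 by limma), and the call was lost under 7 of 15 alternatives. Of the 3 ETS genes, *Etv1* (-0.63, adjusted p = 0.0294) and *Etv5* (-0.59, adjusted p = 0.0353) were lower, and both calls were lost under 5 or 6 alternatives. *Etv4*, the most abundant of the 3, had means of 52.8 FPKM in WT cells and 55.1 FPKM in MSTN-KO cells. Its log2 fold change was 0.06, and it did not pass (adjusted p = 0.789 by limma). *Etv1* read 1.485, 1.383 and 1.122 FPKM in WT cells and 0.576, 0.253 and 0.716 FPKM in MSTN-KO cells, so it entered the test only through its WT libraries and could only be lower. *Etv5* read 6.6, 6.16 and 5.65 FPKM in WT cells and 2.71, 4.16 and 4.59 FPKM in MSTN-KO cells. Of the 10 pathway genes called, *Etv5*, *Fgf5* and *Map2k2* lost their calls without WT replicate 3 (adjusted p = 0.0557, 0.0939 and 0.0833 by limma). The others kept theirs. The median of all tested genes was -0.287 on chromosome 14 (*Spry2*) and -0.253 on chromosome 1 (*Sulf1*). It was -0.077 on chromosome 16 (*Crkl*, *Etv5*), -0.056 on chromosome 12 (*Etv1*) and -0.055 on chromosome 5 (*Fgf5*). Chromosomes 3 (*Hs2st1*, *Nras*), 10 (*Map2k2*) and 7 (*Fgf21*) had medians of 0.014, 0.06 and 0.105. Neighbours of the 10 genes were not examined, and the part of chromosome-wide differences in their values was not tested.

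**Figure D5:**
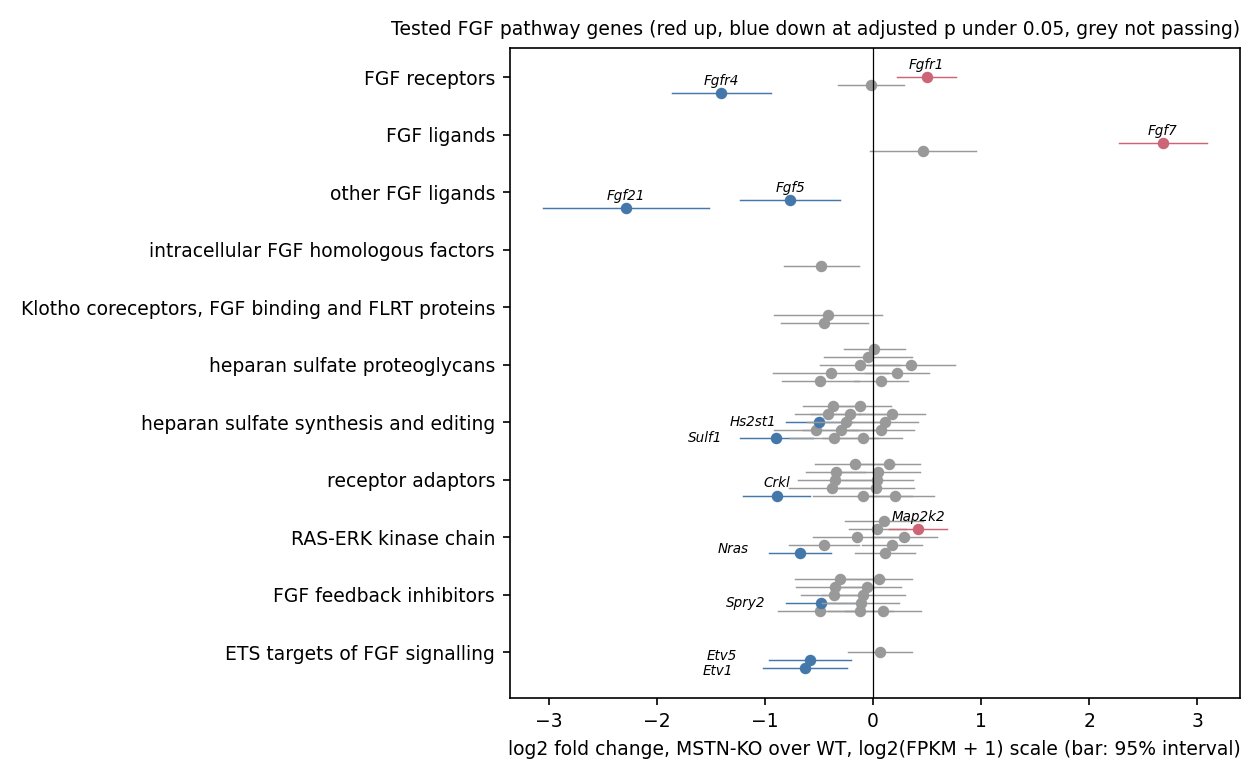
Points give the log2 fold change of each tested FGF pathway gene (horizontal axis, MSTN-KO over WT, log2(FPKM + 1) scale) and bars its 95% interval, grouped by list, in red for genes called higher, blue for genes called lower and grey for the rest. *Fgf7* at 2.68 lies farthest to the right and *Fgf21* at -2.29 farthest to the left.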

How the data were processed

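RNA-seq of 3 WT and 3 MSTN-KO C2C12 libraries was analysed, with groups from the genotype label. The authors deposited FPKM per gene, 1 library per file, without pooling replicates. The submitters' processing notes list Bowtie 0.12.2 and mm8 without their roles, and the annotation and gene filter are not given in the sources used here. FPKM depends on the other genes of a library, and the FPKM sum was 723705 to 764524 in WT and 856314 to 999579 in MSTN-KO libraries. Absolute depth is unknown, so no counting interval could be given. Depth relative to WT replicate 1, estimated from 453 to 653 genes under 0.1 FPKM, was 0.86 to 1.11. At most 1 gene had the same nonzero value in any pair of libraries.

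Symbols and positions came from GENCODE M21 (GRCm38), in which 14445 of 14548 identifiers had an entry. The files hold no coordinates. Promoter windows came from RefSeq, with entries for 6 of the 7 members and none for *Fgfr1*. Protein sequences were not used here.

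Genes that reached 1 FPKM in any library were tested on the log2(FPKM + 1) scale by limma 3.58.1 (R 4.3.3), with the group as the only term and a mean-variance trend in eBayes, and p-values were Benjamini-Hochberg adjusted over all genes tested. Single members were also compared by two-sided exact permutation tests. The fit was tested on simulated data. Other steps used Python 3.11.15, pandas 2.3.3 and scipy 1.17.1.

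The members and lists were chosen with earlier results of these data known. Named genes were all members, up to 4 genes per pathway list with the largest change among those with an adjusted p under 0.05 and no overlap between groups, the 3 genes nearest in pattern to the called members with the largest rise and fall, and genes in the files that overlap an analysed member. *Fgf10*, *Fgf11*, *Gpc1*, *Gpc2*, *Etv4*, the marker genes and the neighbours fall outside this rule and were named after their values were seen. Alternatives were pseudocounts of 0.1 and 0.5, no filter, a filter on the mean, no trend, quantile normalization, scaling by percentile 75 or to a sum of 1000000, the replicate number as a block, and leaving out each library. The values of 1 listed gene are not reported here.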

Additional observations from a re-analysis of the deposited data

How the results depend on the processing

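The calls of *Fgfr4* (-3.85 to -1.20) and *Fgf7* (2.48 to 4.0) kept direction and side of the threshold under every alternative that gave a value, 14 and 15 of them, and *Fgf2* (0.21 to 1.32) stayed short of it under all 14. *Fgfr1* kept its direction, between 0.42 and 0.55 on leaving out single libraries, and lost its call in 3 of those and, at 0.21, on scaling to the same sum. *Fgfrl1* changed sign to 0.002 under quantile normalization and ran from -0.083 to 0.065 on leaving out single libraries, and its lowest value was -0.29 (adjusted p = 0.12 by limma), on scaling to the same sum. *Nudt6* changed sign to -0.21 on scaling to the same sum and ran from -0.078 to 0.136. None of these values of *Fgfrl1* or *Nudt6* passed the test.

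Over all genes, scaling to the same sum gave 350 higher and 2367 lower genes and 510 downregulated DEGs, against 952, 971 and 249, and the share of calls that were higher moved from 49.5% to 12.9%. A pseudocount of 0.1 gave 254 upregulated DEGs, against 131, and 500 downregulated DEGs. Leaving out single libraries gave 419 to 1175 higher and 611 to 1233 lower genes. The cause of these shifts was not tested. The fewest of both came without WT replicate 2. A filter on the mean left no value for *Fgfr4*, *Fgf2* or *Fgfr3*, and *Fgfr3* had a value only with no filter.

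Same-numbered libraries did not deviate together (r = -0.015, -0.128 and -0.142 across genes), beside -0.069 to 0.161 for differently numbered libraries. Deviations were taken from the mean of each group of 3, so these values cannot show whether samples were prepared in pairs. With the replicate number as a block the log2 fold change of *Fgfr4* stayed at -1.40 (adjusted p = 3e-05 by limma), and no call of a member changed. Depth is unknown, so the precision of values near 0, such as *Fgfr4* in MSTN-KO cells, cannot be stated.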
